A study of Mus musculus with 13 samples.

Results

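The genes described are 10 antiviral interferon-stimulated genes, Ifit1, Ifit2, Ifit3, Isg15, Mx1, Oasl2, Rsad2, Usp18, Xaf1 and Irf7, out of 49315 gene identifiers counted. They were taken by name, through their Ensembl identifiers in GENCODE M21, and all 10 passed the filter on low counts in both comparisons. The samples were tumour-draining lymph nodes (tdLN) and tumours, each sequenced whole as bulk RNA, of female mice with B16F10, a pigmented mouse melanoma line. Foxp3ΔJag1 mice carried Foxp3eGFP-Cre-ERT2, a tamoxifen-inducible Cre recombinase expressed from Foxp3, which defines regulatory T cells, together with homozygous floxed Jag1, the gene of the Notch ligand Jagged-1. Foxp3Ctrl mice are wild type in a characteristics label and Jag1 fl/wt with the same Cre in the treatment text, so their genotype is not settled. All mice, controls included, were 6 to 8 weeks old when given tamoxifen in 5 doses, each of 0.1 mg per gram of body mass. After 9 days of washout, at up to 11 weeks of age, 200000 tumour cells in matrigel were injected into the skin of the left flank. Counts came from 9 libraries, 3 of Foxp3ΔJag1 tdLN, 3 of Foxp3Ctrl tdLN and 3 of Foxp3Ctrl tumours, and the library names give the tumours the mouse codes of the control nodes with the same replicate number. Foxp3ΔJag1 tumours were not analysed here. No sample was free of tumour or tamoxifen, so no unchallenged level is known.

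Total counts lay between 32117478 and 44540888 per library, and all libraries carry batch 1 in the labels. The 5 B cell markers summed to between 4313 and 5182 CPM (counts scaled to a fixed total per library) in nodes and between 12.3 and 18.77 in tumours, while the 7 melanoma markers summed to between 10.85 and 36.52 CPM in nodes and between 17650 and 23070 in tumours. Jag1 averaged 23.2 ± 1.21 CPM over Foxp3Ctrl nodes and 24.1 ± 3.58 CPM over Foxp3ΔJag1 nodes (SD, n = 3 each). No lower Jag1 was thus seen in whole nodes, where Foxp3-expressing cells are a minority. Whether those cells lost it was not tested. In whole tissue, fewer cells of a type and less RNA per cell cannot be told apart.

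Type I interferons signal through the receptor chains IFNAR1 and IFNAR2 and the kinases JAK1 and TYK2. These activate a transcription factor complex containing IRF9 that binds the interferon-stimulated response element of target genes. The targets include direct inhibitors of viral RNA and protein production, the ISG15 modifier system, and IRF7, which amplifies interferon gene transcription. Most of these genes also respond to type III interferon and some to interferon gamma. In lymph nodes, sinus macrophages and plasmacytoid dendritic cells are known sources of, or responders to, type I interferon, and in tumours the pathway is known for priming of T cells by dendritic cells.

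Promoter sequences are shown for the genes whose window holds the core of the response element. RefSeq windows on GRCm38.p6, running from 250 bases before to 50 bases after a start, were found for 8 of the 10 genes. The core of the response element, GAAA followed after any 2 bases by a further GAAA, was searched on both strands, overlapping matches included. It was present in the windows of Isg15, Rsad2, Ifit3 and Ifit1 and in none of those of Ifit2, Oasl2, Xaf1 and Irf7, against 1131 of 32851 windows overall (3.44%). A match is a description of the sequence and not a bound site, and the absence of a match says only that these letters are not in that window. The 4 promoters with a match and that of Ifit3b, the near-copy of Ifit3, are printed from 200 to 51 bases before the start on the gene's strand, 5′ to 3′, with every match in capitals. A match on the opposite strand reads TTTC, any 2 bases, TTTC.
Isg15 (chr4:156200869-156201018, minus strand): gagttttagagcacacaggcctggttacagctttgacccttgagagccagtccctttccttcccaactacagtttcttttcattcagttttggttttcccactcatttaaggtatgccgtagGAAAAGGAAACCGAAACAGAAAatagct
Rsad2 (chr12:26456503-26456652, minus strand): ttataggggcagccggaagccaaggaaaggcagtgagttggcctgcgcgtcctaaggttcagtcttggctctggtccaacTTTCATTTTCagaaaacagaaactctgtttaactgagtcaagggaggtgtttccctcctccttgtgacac
Ifit3 (chr19:34583329-34583478, plus strand): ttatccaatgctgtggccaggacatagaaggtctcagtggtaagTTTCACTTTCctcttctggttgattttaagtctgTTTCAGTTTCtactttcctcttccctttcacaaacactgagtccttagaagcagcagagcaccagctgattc
Ifit3b (chr19:34607757-34607906, plus strand): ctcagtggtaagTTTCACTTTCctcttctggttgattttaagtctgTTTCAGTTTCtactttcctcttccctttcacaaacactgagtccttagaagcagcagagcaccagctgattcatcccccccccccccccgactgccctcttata
Ifit1 (chr19:34640689-34640838, plus strand): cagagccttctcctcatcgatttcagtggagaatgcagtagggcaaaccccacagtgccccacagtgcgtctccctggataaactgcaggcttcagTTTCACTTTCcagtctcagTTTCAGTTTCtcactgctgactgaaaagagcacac
Isg15 carried 3 overlapping matches, the first starting 78 bases before the start site, Rsad2 carried 1 at 120 bases, and Ifit1 carried 2 at 104 and 85 bases. The 2 matches of Ifit3 start at 156 and 122 bases and those of Ifit3b at 188 and 154, and the sequence around them is the same in both promoters. The bases after the RefSeq start were found as a run in the M21 transcripts of Ifit3 but not in those of Ifit3b. The distances given for Ifit3b thus rest on the RefSeq start alone.

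In the draining nodes, the first comparison asked whether the Foxp3ΔJag1 genotype came with a different level of these genes. None of the 10 passed the test, although all 10 fold changes were above 0 in Foxp3ΔJag1 nodes, as were 9004 of all 18440 genes tested. The groups overlapped for all 10, and in each group a single node stood above the others. The highest of the 6 nodes was Foxp3ΔJag1 replicate 2 for all 10 genes, and the highest control was Foxp3Ctrl replicate 3 for all 10. The lowest node was Foxp3Ctrl replicate 2 for 9 genes, and Foxp3Ctrl replicate 1 for Rsad2.

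Irf7 (chromosome 7, 141262706 to 141266481) encodes the transcription factor that amplifies interferon production. It was at 66.4, 51.0 and 127.1 CPM in Foxp3Ctrl nodes 1, 2 and 3 and at 108.6, 234.0 and 142.9 CPM in Foxp3ΔJag1 nodes 1, 2 and 3. Control node 3 lay between the Foxp3ΔJag1 nodes, and the other control nodes lay below all of them. With edgeR the difference was 0.98 ± 0.47 on the log2 scale (SE; adjusted p = 0.953), the largest of the 10.

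The Ifit genes, neighbours on chromosome 19, encode tetratricopeptide repeat proteins that bind viral RNA and limit its translation. Ifit1 (34640871 to 34650009) was at 9.555, 5.43 and 37.5 CPM in the Foxp3Ctrl nodes and at 13.4, 45.45 and 25.6 CPM in the Foxp3ΔJag1 nodes, in replicate order. Ifit2 (34550694 to 34576419) was at 29.6, 26.1 and 73.3 CPM and at 34.1, 97.6 and 42.8 CPM. Both genes were higher in control node 3 than in Foxp3ΔJag1 nodes 1 and 3. Ifit3 (34583531 to 34588731) spread most, from 14.4, 9.125 and 62.9 CPM in the Foxp3Ctrl nodes to 23.85, 98.6 and 41.0 CPM in the Foxp3ΔJag1 nodes, with a ratio of 10.8 between the highest and the lowest node. Their log2 fold changes were 0.70 ± 0.91, 0.43 ± 0.63 and 0.93 ± 1.00 (SE), and the SE was as large as the change or larger in each. Of the 50-base words in the Ifit3 transcripts 51.2% also occur in Ifit3b, so the split of reads between these genes is uncertain.

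Isg15 (chromosome 4, 156199424 to 156200818) encodes a ubiquitin-like modifier, and Usp18 (chromosome 6, 121245906 to 121270917) the protease that removes it and also restrains the type I interferon receptor. Isg15 was at 10.5, 8.08 and 29.4 CPM in Foxp3Ctrl nodes and at 12.6, 38.9 and 21.3 CPM in Foxp3ΔJag1 nodes. Usp18 was at 25.9, 20.2 and 47.8 CPM in Foxp3Ctrl nodes and at 34.1, 59.1 and 36.2 CPM in Foxp3ΔJag1 nodes. Usp18 had the narrowest range of the 10, with 2.92 times between the highest and the lowest node, yet kept the same high nodes in each group. The log2 fold changes were 0.60 ± 0.68 for Isg15 and 0.45 ± 0.39 for Usp18 (SE).

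Rsad2 (chromosome 12, 26442746 to 26456452) encodes viperin, which makes a chain-terminating nucleotide that stops viral polymerases. It was at 5.95, 6.83 and 27.2 CPM in Foxp3Ctrl nodes and at 8.02, 33.75 and 12.5 CPM in Foxp3ΔJag1 nodes. Oasl2 (chromosome 5, 114896936 to 114912234), of the oligoadenylate synthetase family, was at 22.2, 15.65 and 47.4 CPM and at 31.45, 85.6 and 41.9 CPM. The log2 fold changes were 0.45 ± 0.89 for Rsad2 and 0.90 ± 0.60 for Oasl2 (SE), with control node 3 above Foxp3ΔJag1 nodes 1 and 3 for both.

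Mx1 (chromosome 16, 97447035 to 97462907) encodes a dynamin-like GTPase against influenza virus, and many laboratory strains carry a defective allele, which RefSeq lists as a transcribed pseudogene. Its transcript was measured in every library, at 21.5, 14.3 and 77.3 CPM in Foxp3Ctrl nodes and at 43.55, 86.5 and 41.15 CPM in Foxp3ΔJag1 nodes. Xaf1 (chromosome 11, 72301629 to 72313733) encodes a partner of the apoptosis inhibitor XIAP and was at 22.9, 16.0 and 49.4 CPM and at 38.4, 63.85 and 42.0 CPM. For both genes control node 3 was the second highest node. The log2 fold changes were 0.60 ± 0.78 for Mx1 and 0.70 ± 0.48 for Xaf1 (SE).

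**Figure D1:**
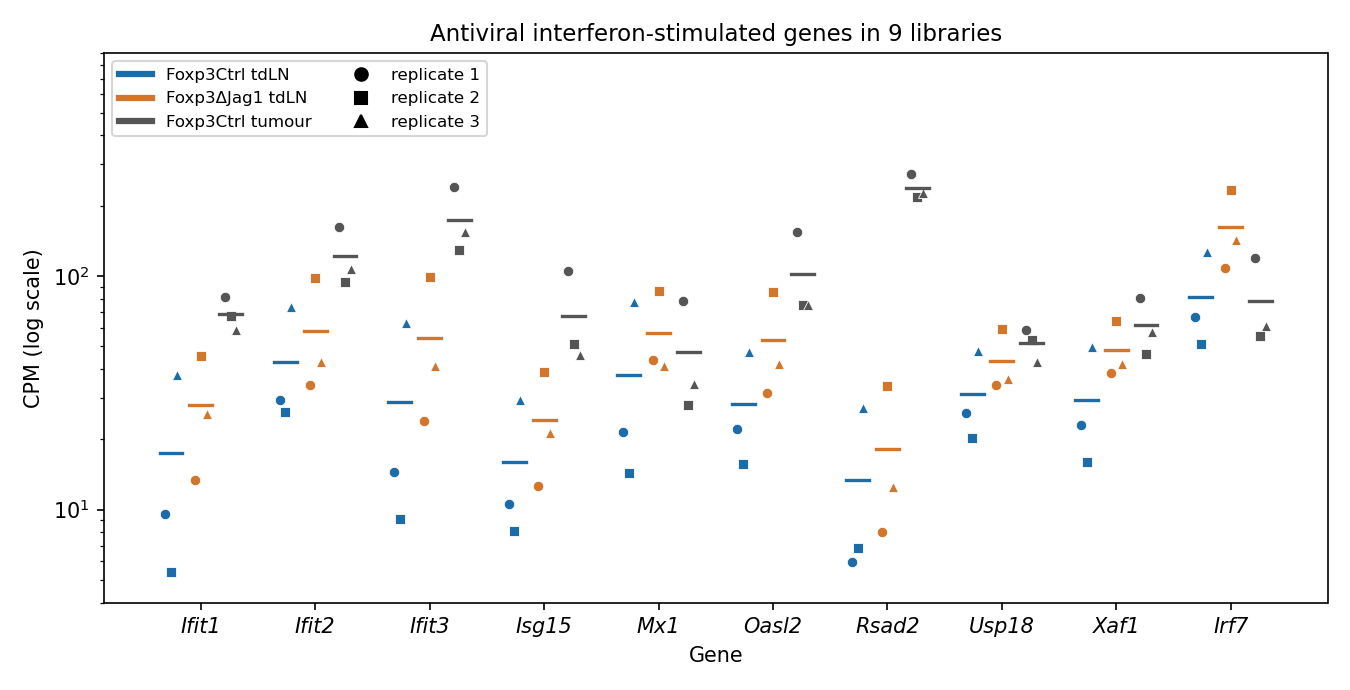
Each point is the level of a gene in a library, in CPM on a log axis, for 3 Foxp3Ctrl nodes, 3 Foxp3ΔJag1 nodes and 3 Foxp3Ctrl tumours, with the mean of each group as a bar and the replicate number as the marker shape. Foxp3Ctrl node 3 and Foxp3ΔJag1 node 2 are the highest of their groups for all 10 genes, and Rsad2 is between 218.6 and 272.7 CPM in tumours against 5.95 to 33.75 in nodes.

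Over the 10 genes the median log2 fold change was 0.649, against -0.004 over all 18440 genes tested, and the edgeR adjusted p lay between 0.953 and 0.967. With edgeR 0 of the 10 rose or fell, where 0.0325% of all genes rose, 0.00542% fell and 0.038% did either. No member had an unadjusted p under 0.05, DESeq2 also called 0 of them, and 0 of the 10 had groups without overlap, against 7.29% of all genes (4.11% higher and 3.18% lower). Single nodes set the size of the difference. The median was 1.433 without Foxp3Ctrl replicate 3, 0.162 without Foxp3ΔJag1 replicate 2, 0.281 without Foxp3Ctrl replicate 2 and 0.395 without Foxp3Ctrl replicate 1, and in none of these fits did a member pass.

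The 10 genes varied together from node to node. Across the 6 nodes the 45 pairs of genes had a Pearson r between 0.841 and 0.993 on log2 CPM, with a median of 0.959. These 6 points include both genotypes, and all genes of a node share its library depth and tissue makeup, which differ between nodes. The r is therefore a description and carries no p. The SD within a group, on log2 CPM, had a median of 0.837 over the 10 genes, from 0.528 for Usp18 to 1.241 for Ifit3, where the median over all genes was 0.179. Summed over the 10 genes, the level was 229.0, 172.8 and 579.4 CPM in Foxp3Ctrl nodes and 348.0, 843.3 and 447.3 CPM in Foxp3ΔJag1 nodes. The sum in control node 3 was thus above that of 2 of the 3 Foxp3ΔJag1 nodes.

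Across the nodes, other antiviral genes had a high r with the 10, and interferon gamma targets had values on both sides of 0. Against the mean of the 10 genes, 11 paralogues (further Ifit, Mx and Oas genes) had a median r of 0.955 over the 6 nodes and 22 other antiviral effectors one of 0.958. For 12 genes of the interferon gamma response the median r was 0.205 (from -0.837 to 0.941), and for 7 genes of the type I receptor and its signalling it was 0.389. Over all genes the median was 0.004, and 389 of 18430 genes (2.11%) had an r over 0.9. The interferon gamma list summed to 1474, 1275 and 1510 CPM in Foxp3Ctrl and 1446, 1479 and 1410 CPM in Foxp3ΔJag1 nodes. These sums span a narrow range, and within it control node 3 and Foxp3ΔJag1 node 2 were again the highest of their groups and control node 2 the lowest of all. Of the 12 genes, 8 were highest among controls in node 3, while 5 were lowest of all 6 nodes in Foxp3ΔJag1 node 2. The difference in r between the lists was not tested.

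The 5 other genes whose levels followed the 10 most closely over the 6 nodes were Slfn8 (r = 0.9979), Ifit3b (0.9972), Mx2 (0.9938), Mitd1 (0.9935) and Dicer1 (0.9933). Slfn8, a Schlafen family gene, was at 82.25, 70.1 and 138.7 CPM in Foxp3Ctrl nodes and at 100.2, 169.7 and 114.4 CPM in Foxp3ΔJag1 nodes. Mx2, the neighbour and paralogue of Mx1, was at 3.44, 2.74 and 17.7 CPM and at 7.185, 24.9 and 9.025 CPM. Dicer1, which processes small RNAs, was likewise highest in these 2 high nodes but over a narrow range, from 103.6 to 120.2 CPM and with control node 3 at the top, so a high r does not imply a large difference between nodes.

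Other measures also differed between nodes, and not all of them followed the 2 high nodes. The 8 macrophage markers summed to 936.6, 1170 and 557.3 CPM in Foxp3Ctrl nodes and 950.4, 798.1 and 917.7 CPM in Foxp3ΔJag1 nodes. All 8 were lowest of the 6 nodes in Foxp3Ctrl replicate 3 and lowest of their group in Foxp3ΔJag1 replicate 2, and their median r with the antiviral mean was -0.766. The 3 lymphatic endothelial markers summed to 132.2, 215.8 and 53.55 CPM in Foxp3Ctrl nodes and 106.4, 95.64 and 107.5 CPM in Foxp3ΔJag1 nodes, with a median r of -0.769. All 3 were lowest of the 6 nodes in Foxp3Ctrl replicate 3 and lowest of their group in Foxp3ΔJag1 replicate 2. The 2 fibroblastic reticular cell markers had a median r of -0.821. The 7 plasmacytoid dendritic cell markers summed to between 631.8 and 752.1 CPM in all 6 nodes. Their median r was -0.038, but single markers ran from -0.532 to 0.756. Foxp3Ctrl replicate 3 was also the node with the highest melanoma sum (36.52 CPM) and epithelial sum (115.7 CPM against 6.906 to 31.25 in the others). The pigment genes Tyrp1 and Dct were at 1.777 and 7.953 CPM in that node, and each was at 0 in 2 of the other nodes. Foxp3ΔJag1 replicate 2, the highest node for all 10 genes, had a melanoma sum of 16.59 CPM. Its epithelial sum, 6.906 CPM, was the lowest of the 6 nodes. The median r was 0.146 for the 4 melanoma markers tested and -0.171 for the 4 epithelial markers. For the 6 T cell markers it was 0.524, from -0.908 to 0.746. The 2 high nodes also had the lowest node totals, 35458879 and 33157236 counts. The part of these measures in the node-to-node differences was not tested.

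**Figure D2:**
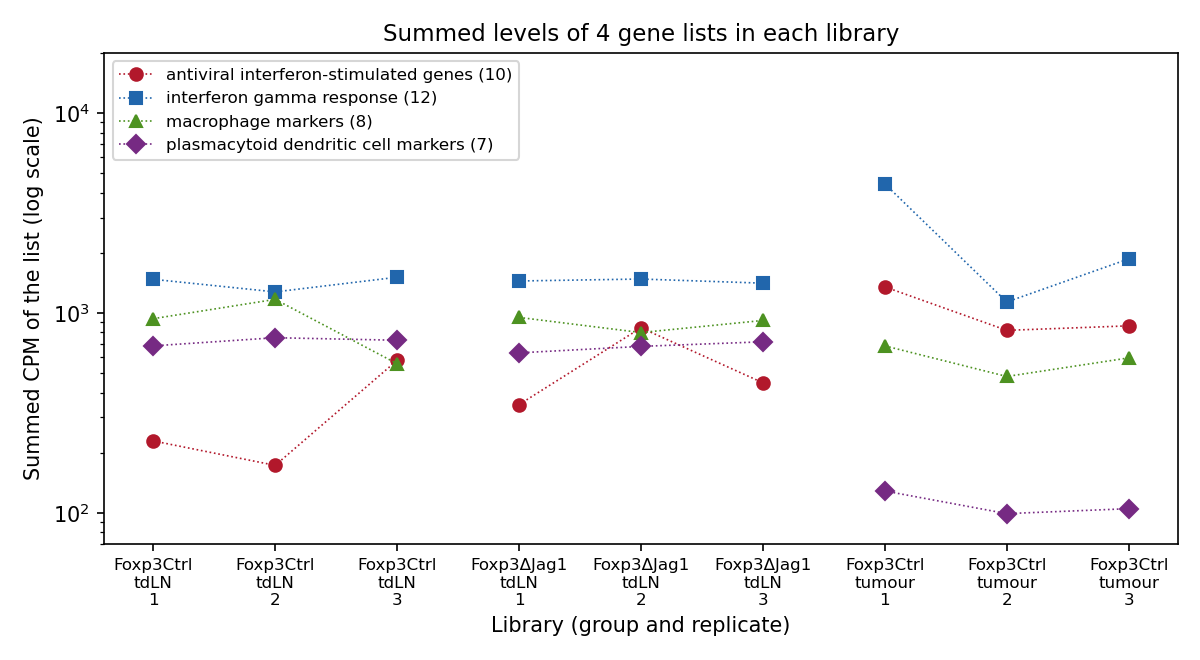
Summed CPM on a log axis of the 10 antiviral genes, 12 interferon gamma response genes, 8 macrophage markers and 7 plasmacytoid dendritic cell markers, by library (group and replicate on the horizontal axis), with dotted lines only to guide the eye within a group. Among nodes the antiviral sum runs from 172.8 to 843.3 CPM while the interferon gamma sum stays between 1275 and 1510.

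Among the related lists no member passed over all genes in the genotype comparison. All 11 paralogues had a fold change above 0 (median 0.819), as had all 22 other effectors (median 0.326) and the 3 genes of ISG15 conjugation (median 0.342). Over all genes 9004 of 18440 were above 0. Foxp3ΔJag1 replicate 2 was the highest node for 9 of the 11, 22 of the 22 and 2 of the 3. Without that node the medians were 0.333, 0.112 and 0.245. Most of these genes shared a high node, so their signs are not separate observations. The paralogues with the smallest p were the oligoadenylate synthetase genes Oas1g (log2 fold change 1.03 ± 0.42 SE), Oas1a (0.91 ± 0.35) and Oas1c (0.44 ± 0.18), all at an edgeR adjusted p of 0.953. Among the other effectors, Bst2, which encodes the virion tether tetherin, averaged 121.3 ± 14.2 CPM over the Foxp3Ctrl nodes and 149.9 ± 11.43 CPM over the Foxp3ΔJag1 nodes (SD, n = 3 each) without overlap (edgeR adjusted p = 0.953). Of the 22 effectors 3 were higher without overlap, where 4.11% of all genes were. The same held for 0 of the 11 paralogues, 1 of the 3 conjugation genes and 1 of the 7 receptor and signalling genes. In the receptor and signalling list, 5 of 7 fold changes were above 0 and none passed. The interferon gamma list had 4 of 12 above 0 and a median of -0.023.

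The second comparison set the tumours of the 3 control mice against the draining nodes of the same mice. Its main fit did not pair the samples by mouse, and with the mouse as a block 7 of the 10 genes rose. Of the 10 genes 8 rose in tumours with edgeR, 0 fell, and Mx1 and Irf7 did not pass. Over all 18566 genes tested 35.6% rose and 37.6% fell (73.2% in either direction). The median log2 fold change of the 10 was 1.747, against -0.048 over all genes. The groups were higher without overlap for 6 of the 10, where 36.5% of all genes were, namely Ifit1, Ifit2, Ifit3, Isg15, Oasl2 and Rsad2. These folds share the control nodes with the genotype comparison, so the comparisons are not independent.

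Rsad2 rose most. It was at 272.7, 218.6 and 225.6 CPM in tumours 1, 2 and 3, against 5.95, 6.83 and 27.2 CPM in the nodes of the same mice, a 19.1-fold difference (log2 fold change 4.26 ± 0.65 SE, edgeR adjusted p = 0.00154). Every tumour exceeded every node. As a ratio, though not in CPM, the tumours differed among themselves far less than the control nodes did. Within the mice of replicates 1, 2 and 3 the tumour held 45.9, 32.0 and 8.29 times the CPM of the node.

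The Ifit genes rose in all 3 cases. Ifit3 was at 239.2, 129.1 and 154.0 CPM in tumours (log2 fold change 2.70 ± 0.77 SE, edgeR adjusted p = 0.0214). Ifit1 was at 81.0, 67.3 and 58.6 CPM (2.08 ± 0.70, edgeR adjusted p = 0.0382) and Ifit2 at 161.5, 94.7 and 107.4 CPM (1.58 ± 0.42, edgeR adjusted p = 0.0156). The ratio within a mouse was above 1 for all 3 genes in all 3 mice, and was smallest in the mouse of replicate 3, at 1.56 for Ifit1, 1.47 for Ifit2 and 2.45 for Ifit3.

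Isg15 was at 105.4, 51.1 and 45.9 CPM in tumours (log2 fold change 2.16 ± 0.58 SE, edgeR adjusted p = 0.0163). Oasl2 was at 154.4, 75.2 and 75.0 CPM (1.92 ± 0.49, edgeR adjusted p = 0.0125). For both genes every tumour exceeded every control node and tumour 1 was the highest, and the ratio within the mice of replicates 1, 2 and 3 was 10.02, 6.33 and 1.56 for Isg15 and 6.97, 4.80 and 1.58 for Oasl2. Xaf1 was at 80.6, 46.4 and 57.8 CPM (1.15 ± 0.42, edgeR adjusted p = 0.0447), and its tumours overlapped control node 3.

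Usp18 was at 58.5, 53.0 and 42.75 CPM in tumours, a smaller rise (0.79 ± 0.29 SE, edgeR adjusted p = 0.0402), and with the mouse as a block its edgeR adjusted p was 0.0535. In the mouse of replicate 3 the tumour held 0.894 times the node's level, against 2.25 and 2.62 in the others. Mx1 was at 78.4, 28.2 and 34.5 CPM in tumours, 0.41 ± 0.72 (SE) above the nodes on the log2 scale (edgeR adjusted p = 0.628). Irf7 was at 119.0, 55.1 and 60.8 CPM, 0.02 ± 0.42 (SE) above the nodes on the log2 scale (edgeR adjusted p = 0.972). For Mx1 and Irf7 the ratio within a mouse was above 1 in the mice of replicates 1 and 2 (3.65 and 1.97 for Mx1, 1.79 and 1.08 for Irf7) and below 1 in that of replicate 3 (0.447 and 0.479).

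**Figure D3:**
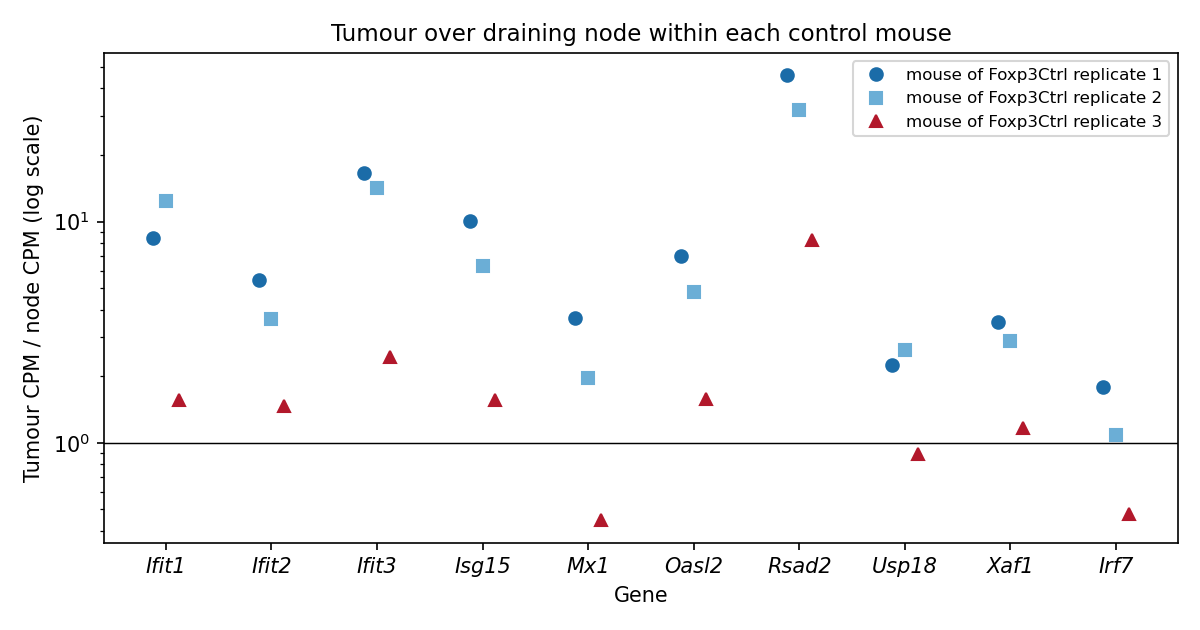
Ratio of tumour CPM to node CPM within each of 3 control mice, on a log axis, for the 10 genes, with the line at equal levels. The mouse of replicate 3, whose node was the highest control, has the smallest ratio for all 10 genes and lies below the line for Mx1, Usp18 and Irf7.

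**Figure D4:**
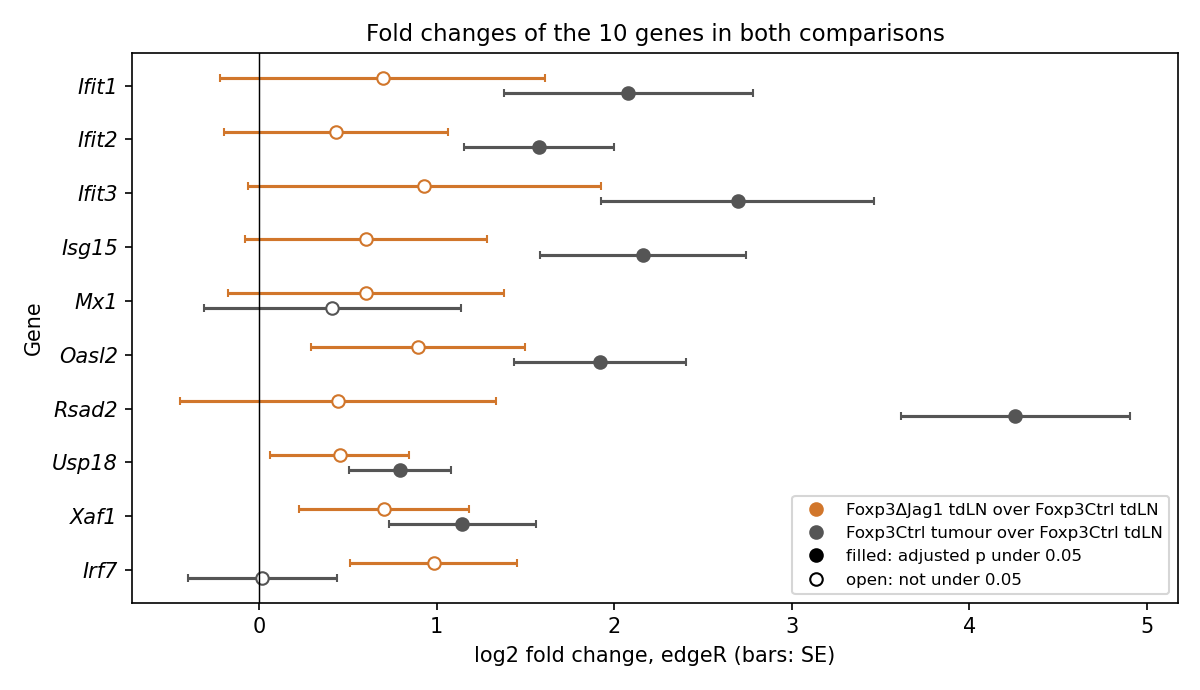
log2 fold changes from edgeR with their SE for the 10 genes, Foxp3ΔJag1 over Foxp3Ctrl nodes in orange and Foxp3Ctrl tumours over Foxp3Ctrl nodes in grey, filled where the adjusted p was under 0.05. No genotype point is filled, and 8 of 10 tumour points are, from 0.79 for Usp18 to 4.26 for Rsad2.

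How many of the 10 rose depended on single libraries. Without tumour 1 only Isg15, Oasl2 and Rsad2 rose (3 of 10), without tumours 2 and 3 in turn 5 and 4 rose, and without control nodes 1, 2 and 3 in turn 5, 5 and 9 rose, Mx1 among the 9 (log2 fold change 1.40, edgeR adjusted p = 0.0477). Without control node 3 the log2 fold change was 3.22 for Ifit1, 3.90 for Ifit3 and 5.23 for Rsad2, with a median of 2.280. Rsad2 and Oasl2 passed under all 13 alternatives, Isg15 under 12, Ifit2 under 11, Ifit3 under 10, Ifit1 and Xaf1 under 6 and Usp18 under 4.

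Levels can be set side by side between genes only per length, as CPM per kilobase of annotated exon (mean ± SD, n = 3 in each group). In Foxp3Ctrl nodes the order ran from Irf7 (21.6 ± 10.7) and Isg15 (21.2 ± 15.4) through Ifit3 (16.5 ± 17.0), Usp18 (11.2 ± 5.22), Ifit2 (10.95 ± 6.70), Mx1 (9.96 ± 9.11), Ifit1 (6.59 ± 6.57), Xaf1 (6.28 ± 3.76) and Oasl2 (4.46 ± 2.63) to Rsad2 (3.075 ± 2.78). No neighbours in that order differed by more than both their SDs. In Foxp3ΔJag1 nodes Irf7 (42.85 ± 17.2) and Isg15 (32.1 ± 17.7) again had the highest means and Rsad2 (4.17 ± 3.17) the lowest. In tumours Ifit3 (99.8 ± 33.1), Isg15 (89.2 ± 43.6) and Rsad2 (55.1 ± 6.79) led, followed by Ifit2 (30.9 ± 9.035), Ifit1 (25.96 ± 4.25) and Irf7 (20.7 ± 9.36), and Mx1 (12.4 ± 7.23) was last. Of neighbours in the tumour order, only Rsad2 and Ifit2 differed by more than both SDs. Rsad2 was thus last of the 10 in nodes and among the first 3 in tumours.

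In tumours too a single library stood above the others for the 10 genes, over a narrower range. Tumour 1 was the highest of the 3 for all 10, and also for all 22 other antiviral effectors. Of the 10, tumour 2 was the lowest for 6 and tumour 3 for 4, and no r was computed. The sums of the 10 were 1351, 818.6 and 862.4 CPM. The median SD of log2 CPM over the 10 was 0.421, from 0.164 to 0.772, against 0.184 over all genes. The interferon gamma list also varied between tumours, with sums of 4426, 1135 and 1865 CPM and tumour 1 highest for 12 of 12 genes.

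The paralogues moved in both directions between tissues. Of 11 tested, 3 rose and 2 fell in tumours, where 35.6% of all genes rose and 37.6% fell. Oas1g rose from 1.51 ± 0.6165 to 23.8 ± 7.55 CPM (SD, n = 3 each), which is 4.05 ± 0.34 (SE) on the log2 scale, Oas1a by 2.20 ± 0.29 and Ifit3b by 2.67 ± 0.82 on the log2 scale (edgeR adjusted p = 2.2e-05, 0.000359 and 0.0275). Ifit1bl1, which lies between Ifit3 and Ifit3b in the cluster, fell from 30.3 ± 9.82 to 2.03 ± 0.158 CPM (SD, n = 3 each), a log2 fold change of -3.82 ± 0.23 (SE; edgeR adjusted p = 3.28e-06), and Oas1c fell by 1.02 on the log2 scale (edgeR adjusted p = 0.00259). Mx2, at 27.6, 16.9 and 17.9 CPM in tumours, had a log2 fold change of 1.49 ± 0.73 (SE) and did not pass (edgeR adjusted p = 0.111), as was the case for Mx1. Without control node 3, 6 of the 11 paralogues rose and 2 fell.

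Of 22 other antiviral effectors 8 rose and 7 fell, with a median log2 fold change of -0.03, shares close to the 35.6% and 37.6% of all genes that rose and fell. Ifitm3, which blocks viral entry at membranes, rose from 102.0 ± 3.27 to 455.5 ± 98.1 CPM and Bst2 from 121.3 ± 14.2 to 424.9 ± 92.9 CPM, while Sp100, a nuclear body protein, fell from 453.3 ± 97.2 to 66.4 ± 19.1 CPM (SD, n = 3 each). Their edgeR adjusted p was 8.83e-06, 2.4e-05 and 2.1e-05. Slfn8, the closest follower of the 10 in nodes, fell to 27.7, 14.5 and 16.5 CPM in tumours (log2 fold change -2.24, edgeR adjusted p = 0.000782). The 6 T cell markers summed to between 953.9 and 1199 CPM in nodes and between 24.66 and 40.6 CPM in tumours, and the part of lymphocyte content in these differences was not tested.

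In the ISG15 pathway the conjugating enzyme gene Ube2l6 rose from 29.8 ± 2.34 to 97.6 ± 46.1 CPM and the ligase gene Herc6 from 38.2 ± 17.9 to 102.5 ± 49.9 CPM, beside Isg15 and Usp18. The activating enzyme gene Uba7 fell from 203.5 ± 51.6 to 73.2 ± 29.15 CPM (SD, n = 3 each), with edgeR adjusted p of 0.00226, 0.0232 and 0.00477 for the 3 genes in this order. Ube2l6 and Uba7 passed under all 13 alternatives and Herc6 under 9, and Herc6 did not pass without control node 1, control node 2 or tumour 3, or with no filter on low counts.

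Upstream of the targets, 0 of 7 receptor and signalling genes rose and 4 fell. Beside this count and those of the lists that follow, 35.6% of all genes rose and 37.6% fell. Jak1 fell from 708.2 ± 2.25 to 130.1 ± 11.5 CPM, Tyk2 from 141.8 ± 8.34 to 61.0 ± 2.21 CPM and Irf9 from 127.8 ± 24.2 to 63.9 ± 9.12 CPM (SD, n = 3 each), where edgeR gave an adjusted p of 8.01e-07, 5.89e-06 and 0.000429. Of 13 nucleic acid sensors and adaptors 4 rose and 7 fell. Cgas, the cytosolic DNA sensor, rose from 9.64 ± 0.988 to 20.9 ± 1.20 CPM, while Tlr7, an endosomal RNA sensor, fell from 32.5 ± 4.79 to 5.97 ± 0.454 CPM and Irf3, the factor downstream of several sensors, fell from 122.9 ± 13.6 to 42.9 ± 4.199 CPM (SD, n = 3 each), at edgeR adjusted p of 6e-05, 2.34e-06 and 9.52e-06. The feedback inhibitor genes Socs1, Socs3 and Ptpn2 did not pass, with edgeR adjusted p between 0.108 and 0.681. Without tumour 1, Socs1 and Socs3 fell, by 1.11 and 0.80 on the log2 scale (edgeR adjusted p = 0.00117 and 0.00373). In the interferon gamma list 6 of 12 rose and 1 fell (2 and 1 without control node 2, 6 and 3 without tumour 1). The chemokine gene Cxcl10 rose from 21.7 ± 5.33 to 150.7 ± 82.15 CPM, and Ciita, the master regulator of MHC class II, fell from 413.2 ± 60.45 to 29.3 ± 22.9 CPM (SD, n = 3 each), at edgeR adjusted p of 0.000961 and 0.00235.

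Transcripts of type I interferon itself were near the limit of detection. Ifnb1 had 0, 1 and 0 counts in Foxp3Ctrl nodes, 1, 0 and 0 in Foxp3ΔJag1 nodes and 8, 7 and 3 in tumours, 18 in all against 1 in the nodes of the same mice, and was below the filter for testing. With no such filter it rose in tumours, at an adjusted p of 0.00499 with edgeR and 0.0257 with DESeq2, on these few counts. Ifna1, Ifna2, Ifnl2 and Ifnl3 had 0 counts in all 9 libraries, which at 3 counts allows up to 0.0674 to 0.0934 CPM, depending on the library, for counting error only. Ifna4 and Ifne had 0 counts in every node but some in tumours, and Ifnk had some in nodes. All were below the filter, and with no filter edgeR gave an adjusted p of 0.435, 0.435 and 0.956 in the tumour comparison. Of the Ifna genes only Ifna1, Ifna2 and Ifna4 were listed. Ifna genes are near-identical, so reads mapping to several of them may not have been counted. Ifng had 76, 61 and 56 counts in Foxp3Ctrl nodes, 71, 46 and 62 in Foxp3ΔJag1 nodes and 199, 42 and 79 in tumours, highest in tumour 1, and passed in neither comparison. Without tumour 2 it rose (log2 fold change 1.27, edgeR adjusted p = 0.0230, against 0.84 and 0.194 with all tumours). Plasmacytoid dendritic cell markers all fell in tumours (7 of 7), where 37.6% of all genes fell. Their sums were 128.6, 99.08 and 104.9 CPM, of which Tcf4 made up most.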

How the data were processed

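The authors deposited raw counts of reads per gene, whole numbers, in a table of nodes and a table of tumours. Trimmomatic 0.36, STAR 2.5.2b, featureCounts of Subread 1.5.2 and the build GRCm38 are named, per the submitters' processing notes. Which annotation was counted, and whether by strand, is not given in the sources available, so reads of genes that overlap on opposite strands may be mixed. RNA integrity numbers were over 9, and the labels' protocol leaves the choice between poly(A) selection and rRNA depletion unstated. A further 3 columns of the tumour table match no label and were not used.

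Counts went into edgeR 4.0.16 under R 4.3.3 (quasi-likelihood F test, robust, TMM, filterByExpr, Benjamini-Hochberg over all genes tested, FDR 0.05), each comparison fitted on its own 6 libraries. A gene rose or fell where it passed. The SE of a log2 fold change was worked back from the test, as its absolute value divided by the square root of F. CPM use total counts, and per-kilobase values the union of GENCODE M21 exons. The log2 CPM behind every r, every SD on that scale and the deviations between libraries were instead scaled by TMM over the genes tested. p-values measure the spread between these samples. Samples were grouped by title.

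Same-numbered control nodes and tumours come from the same mouse by library name, and their deviations correlated at -0.0827, 0.127 and -0.00272. The 10 genes, the lists and the comparisons were chosen with earlier results of these data known. Genes named are the 10, any paralogue, for each list and comparison the 3 genes of lowest p, and the 5 genes of highest r (log2 CPM, prior count 2). Alternatives were DESeq2 1.42.0, its size factors, library size only, no filter, a CPM of at least 1 in 3 libraries, a replicate block, a joint fit of the 9 libraries and leaving out each replicate. On simulated counts with 200 changed genes, the genotype design (18072 genes) recovered 73 of 100 at 2-fold and 95 of 100 at 4-fold, with 56 and 92 in the tumour design (17599 genes). False calls were 13 of 181 and 13 of 161. The changed genes were drawn at random from those over 1 CPM in control nodes. The 10 members spread more within a group of nodes (median SD 0.837 against 0.179 over all genes), so these rates do not give their recovery.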

Additional observations from a re-analysis of the deposited data

How the results depend on the processing

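Each group has 3 animals, the 6 nodes differed by up to 10.8 times in a member, and no member passed in the genotype comparison under any of its 13 alternatives (lowest edgeR or DESeq2 adjusted p 0.228, for Xaf1). The number of genes called there was 7, 70 with DESeq2, 16 with no filter on low counts and 11 with the replicate number as a block (6 shared with the 7). It lay between 6 and 21 when single replicates were left out, with 21 without Foxp3Ctrl replicate 3 and 16 without Foxp3ΔJag1 replicate 2. By the mouse codes, same-numbered nodes of the 2 genotypes come from different mice, so the number is only a name there. Their deviations correlated at -0.165, 0.034 and -0.124, and 2 of 6 libraries correlated best with their own number. The tumour comparison, with shared mice, also gave 2 of 6, so these correlations cannot tell a pairing from a name. In the tumour comparison the count was 13583 and lay between 11788 and 14911, and it was 13375 with the mouse as a block, which changed the call of no member but Usp18. The number of members that rose there was 8, 5 with library size only, 2 with no filter on low counts and 7 with a CPM of at least 1 in 3 libraries. The median over the members kept its sign, between 0.162 and 1.433 for genotype and between 1.427 and 2.280 for tumour. Directions turned without Foxp3ΔJag1 replicate 2 for Ifit2 (-0.174, up to 1.019 with others left out) and Rsad2 (-0.380, up to 1.455) between genotypes. Between tissues Irf7 turned with library size only (-0.058), with the CPM filter (-0.025) and with single replicates left out (-0.387 to 0.422), and Mx1 without tumour 1 (-0.142, up to 1.402 with others left out). The cause of these turns was not tested.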
